A study of Homo sapiens with 6 samples.

Results

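The nuclear-encoded subunits of the mitochondrial respiratory chain and ATP synthase, with the assembly factors that carry the same symbol prefixes, were followed through the N6-methyladenosine (m6A) peak lists of U2OS cells. Members were the peaks whose gene symbol begins with NDUFA, NDUFB, NDUFC, NDUFS, NDUFV, UQCR, ATP5 or COX and a digit, or is SDHA, SDHB, SDHC or SDHD, without pseudogenes and hyphenated symbols. The rule found 43 of the 10785 gene symbols with a peak in any list, and 110 of 41729 peaks. U2OS is an osteosarcoma line, and 3 conditions were compared: cells that received the control siRNA, cells with DF2 siRNA 1 and cells with DF2 siRNA 2, where DF2 is YTHDF2, an m6A-binding protein known to shorten the life of the RNAs it recognises. All 3 groups are labelled wild type in genotype, so the siRNA is the difference that the labels give. The RNA was cytoplasmic and cut to fragments of some 100 nt, and each condition holds 1 input library and 1 m6A immunoprecipitate (m6A-IP). The processed data are 1 merged peak list per condition, called here the control, siRNA 1 and siRNA 2 lists.

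The respiratory chain passes electrons from NADH through complex I, or from succinate through complex II, by way of ubiquinone to complex III, and from there by cytochrome c to complex IV, which reduces oxygen. Complexes I, III and IV pump protons across the inner mitochondrial membrane, and ATP synthase uses the returning protons to make ATP. Most subunits are encoded in the nucleus, and assembly factors that are not part of the finished complexes insert their metal and heme groups and join their modules. In messenger RNA, m6A is known to lie mostly near stop codons and in long exons, within the sequence A, G or T, then A or G, then AC, then A, C or T (the DRACH motif).

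With 1 list per condition replicate spread is unknown, and differences between lists are given without an SD or a test. Ranges given in brackets after a share are 95% exact (Clopper-Pearson) binomial intervals, which include only counting error. The control list held 15272 peaks, the siRNA 1 list 13147 and the siRNA 2 list 13310. Library depths are unknown here, and RNA levels are not part of the lists, so a missing peak and a transcript too scarce for a peak cannot be told apart. Peaks of YTHDF2 itself were present in the 3 lists, and they do not measure the knockdown. The labels call the cells epithelial. Peaks were present for 2, 3 and 2 of 6 mesenchymal or bone-lineage markers (control, siRNA 1, siRNA 2) and for 0, 1 and 1 of 5 epithelial markers. FN1, COL1A2 and SPARC of the first kind and EPCAM, CDH1, KRT18 and KRT19 of the second had none in any list. Missing peaks on both sides do not decide the cell type. Each peak has a score, a fold enrichment and a false discovery rate (FDR) set by the authors. Because the score scale differs between lists, a peak is placed here by its score percentile within its own list, and values from several lists stand side by side and measure no change.

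The short sequences below are shown because many member peaks, described later, lay over the start of the transcript. Each is a 30-base window of the RefSeq sequence (GRCh38.p14), read 5′ to 3′ on the transcript strand as DNA, that holds a DRACH match, in capitals, within the first 50 transcribed bases and under a peak of the member. The 9 shown are a selection of the 15 such windows. Windows under a peak of the siRNA 1 list and of no other come first, without those of NDUFB2 and NDUFB11, and windows under a peak of each of the 3 lists follow, 1 per gene. A match is a description of the letters and not a mapped site.
UQCRH, chr1:46303698-46303727, plus strand: cttcttgatcctGAACTgggttaggtgccg
UQCRQ, chr5:132866650-132866679, plus strand: caaccggatcggTGACTgtggagggcgagc
NDUFB8, chr10:100529882-100529911, minus strand: gctcagccgccgTGACAggcctttgcgcat
SDHD, chr11:112086872-112086901, plus strand: cgggttggtggaTGACCttgagccctcagg
UQCR11, chr19:1605427-1605456, minus strand: gccgggtcagctGGACAgggtcatcctgag
NDUFA1, chrX:119871852-119871881, plus strand: aagccaggtcacctttcaaGGACCcagaag
NDUFS3, chr11:47579076-47579105, plus strand: tctgcatctgagTAACAtggcggcggcggc
COX14, chr12:50112234-50112263, plus strand: acagtggcctcgAGACCctgcctgcctgag
ATP5J, chr21:25735015-25735044, minus strand: tctgtctcacctAGACCcgtccggtcgcag

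The complexes differed in how many of their genes had a peak. RefSeq lists 107 protein-coding nuclear genes under the rule, and 45 of them (42.1%, interval 32.6 to 52.0) had a peak in any list, beside 43.8% of the protein-coding genes of RefSeq (8791 of 20056). The 45 are the 43 members and 2 genes that the files list under older symbols outside the rule: ATP5IF1, the inhibitor of ATP synthase, with a siRNA 1 peak at score percentile 69.5, and the complex I assembly factor NDUFAF8, with peaks at 63.0 and 21.7 in siRNA 1 and siRNA 2. These 2 enter the counts of this paragraph and no others. Complex I had peaks on 19 of 38 genes (50%, 33.4 to 66.6) and complex III on 6 of 9 (66.7%, 29.9 to 92.5). Complex II had peaks on 2 of 4 genes, the membrane anchors SDHC and SDHD, and none on the catalytic subunits SDHA and SDHB. ATP synthase had peaks on 5 of 19 genes (26.3%, 9.15 to 51.2). In complex IV, COX6A1 was the single gene of 17 with a peak (5.88%, 0.149 to 28.7). The 16 without a peak include COX4I1, COX5A, COX5B and COX6C and also isoforms known from muscle or testis, such as COX6A2, COX7A1 and COX8C. Assembly factors and paralogs had peaks on 12 of 20 genes (60%, 36.1 to 80.9). NDUFA4, counted in complex I by its symbol, is today placed in complex IV, which would give complex IV 2 genes with a peak and complex I 18.

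**Figure D1:**
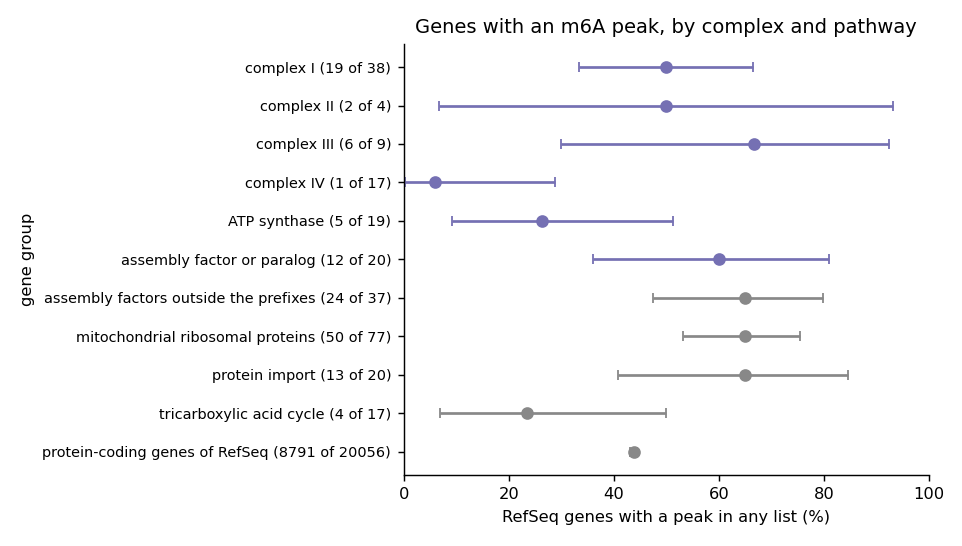
Percentage of RefSeq genes with an m6A peak in any of the 3 lists, on the x axis, for each complex and for other mitochondrial gene groups on the y axis. Points are shares and bars are 95% exact binomial intervals. Complex IV (1 of 17) and ATP synthase (5 of 19) lie lowest among the complexes, and complex III (6 of 9) highest.

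The same complexes were not represented alike in the 3 conditions. Of the 43 members, the control list held 30 (69.8%, 53.9 to 82.8), beside 88.6% of all 10785 genes. The siRNA 1 list held 32 (74.4%, 58.8 to 86.5), beside 77.6%, and the siRNA 2 list 26 (60.5%, 44.4 to 75), beside 79.4%. The member share was thus below that of all genes in control and siRNA 2 and close to it in siRNA 1. Complex I had 12, 15 and 13 genes with a peak in control, siRNA 1 and siRNA 2, and complex III had 5, 5 and 2. Complex II had 1, 1 and 0. ATP synthase had 2 in each list, and COX6A1 was present in each. Assembly factors and paralogs had 9, 8 and 8. The siRNA 2 list thus held none of the complex II peaks and 2 of the 6 complex III genes, UQCR11 and UQCRFS1.

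Members fell into 7 classes by the lists that held them. A peak in all 3 lists was present for 18 of 43 members (41.9%, 27.0 to 57.9), beside 65.4% of all 10785 genes. A peak in the siRNA 1 list alone was present for 7 members (16.3%, 6.81 to 30.7), beside 5.03% of all genes. A peak in control alone was present for 7 members (16.3%) as well, beside 12.0% of all genes. Both siRNA lists and not control held 4 members (9.30%, 2.59 to 22.1), beside 3.55%. Smaller classes were control with siRNA 1 (3 members, 6.98%, beside 3.62%), control with siRNA 2 (2 members, 4.65%, beside 7.57%) and siRNA 2 alone (2 members, 4.65%, beside 2.85%). With every member peak counted, the intervals of the first 2 classes do not reach the share of all genes, and those of the other 5 classes include it. Among the 32 structural subunits alone, 12 (37.5%) had a peak in all 3 lists and 6 (18.8%) in siRNA 1 alone.

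**Figure D2:**
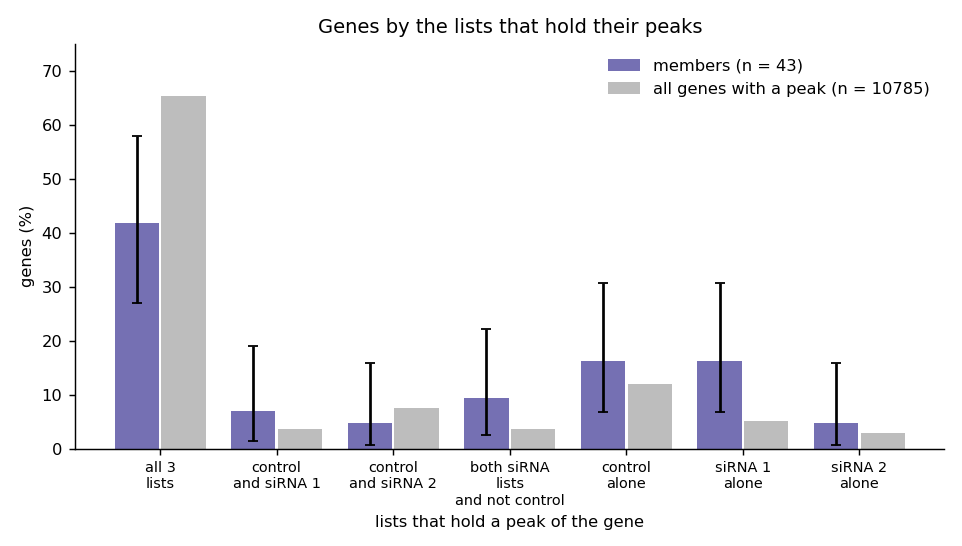
Percentage of genes in each class, on the y axis, by the lists that hold a peak of the gene, on the x axis. Purple bars are the 43 members with 95% exact binomial intervals, and grey bars are all 10785 genes with a peak. Members reach 41.9% in the class of all 3 lists, where all genes reach 65.4%, and 16.3% in siRNA 1 alone, where all genes reach 5.03%.

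Among the 18 members with a peak in all 3 lists, complex I was represented by NDUFA4, NDUFA7, NDUFB2, NDUFB9, NDUFB11, NDUFC1, NDUFS3 and NDUFV3. Complex III was represented by UQCR11 and UQCRFS1, complex IV by COX6A1, ATP synthase by ATP5J, and the assembly factors by COX10, COX11, COX14, COX19, NDUFAF1 and NDUFAF7. The 8 with the highest mean score percentile are described next, in that order.

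COX6A1 encodes the widely expressed form of the complex IV subunit 6A, and its mean score percentile was 98.4. Its first peak (hg38 chr12:120438090-120438638, plus strand) covered 400 bases, with a 5′ UTR and a stop codon by the authors' annotation. It stood at percentile 97.9 in control, 98.6 with siRNA 1 and 98.5 with siRNA 2. Its fold enrichment was 15.4, 46.6 and 23.6 in the same order, the widest spread of fold among these 8 members. The −log10 FDR was 1.75, 11.2 and 3.30, so a peak near the top of the control list by score missed an FDR of 0.01 there. In both siRNA lists this peak shares 175 bases with a peak named AL021546.6, so its gene is uncertain there. A further COX6A1 peak, from 120440399, stood at percentiles 93.0, 89.6 and 73.6. NDUFS3, a core subunit of the peripheral arm of complex I, had a mean percentile of 94.2. Its control peak (chr11:47565736-47579194, plus strand, 600 bases in blocks) stood at percentile 97.8 with a fold of 26.4. With siRNA 1 the NDUFS3 peak stood at 93.6 with a fold of 24.2, and with siRNA 2 at 91.2 with a fold of 14.2. This peak shares bases with a peak named for the neighbouring gene PTPMT1 in each list, so the gene that holds it is uncertain.

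COX14, an assembly factor that acts on the newly made COX1 subunit of complex IV, had 2 peaks in every list. The stop codon peak (chr12:50118502-50120457, plus strand, 473 bases), also annotated to a 5′ UTR, stood at percentiles 85.0, 81.2 and 81.8. Its folds were 16.0, 18.0 and 15.3. The 5′ UTR peak (50112179-50112378) stood at 59.8, 48.0 and 61.0, with folds of 10.8, 10.9 and 13.2. Both COX14 peaks kept the same borders in the 3 lists, and the 5′ UTR peak shares 105 bases with a peak named RP4-605O3.4 in each. UQCR11, a small subunit of complex III, had a 3′ UTR peak of 951 bases with the same borders in the 3 lists (chr19:1597172-1598122, minus strand), at percentiles 77.7, 66.1 and 74.4 and folds of 19.7, 17.3 and 20.4. In the siRNA 1 list UQCR11 had 3 more peaks, 2 in the 5′ UTR and 1 over a stop codon, at percentiles from 88.5 to 90.6, above its shared peak. These 3 overlapped no peak of the other lists. UQCR11 peaks carry 2 gene identifiers, and each of the 3 shares bases with another of them. A second UQCR11 peak with siRNA 2 stood at percentile 61.4 with a fold of 7.47. It lies 16076 bases downstream of the RefSeq gene and shares 102 bases with a peak named MBD3, so its gene is uncertain.

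NDUFV3 belongs to the NADH-binding module of complex I, and its stop codon peak (chr21:42903573-42909159 in control, plus strand) stood at percentiles 78.4, 75.8 and 82.0. The folds were 21.9, 27.0 and 32.6, each above the median of all peaks in its list. A second NDUFV3 peak in the 3′ UTR was present in control and siRNA 2, at percentiles 19.0 and 17.9. NDUFAF1, an assembly factor of complex I, had 1 stop codon peak with the same borders in the 3 lists (chr15:41394875-41396916, minus strand). Its percentiles were 81.9, 83.0 and 66.0 and its folds 34.6, 42.4 and 24.2, so the siRNA 2 value was lowest on both scales.

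UQCRFS1, the Rieske iron-sulfur protein of complex III, had a stop codon peak from 29207396 on the minus strand of chromosome 19, at percentiles 78.3, 76.0 and 75.9. Folds were 11.3, 15.2 and 11.7, and the −log10 FDR of 1.46 in control and 1.42 with siRNA 2 missed 0.01. The 5′ UTR peak of NDUFA4 (chr7:10940057-10940256, minus strand) covered 200 bases in each list, at percentiles 81.5, 73.7 and 74.8 and folds of 10.7, 14.0 and 11.7. NDUFA4 had a further coding peak with siRNA 1, at percentile 66.5, that overlapped no peak of the other lists. For both genes the score stood above the median of each list, while the fold stood below it except for UQCRFS1 with siRNA 1.

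The other 10 members in all 3 lists ranged more widely. ATP5J, coupling factor 6 in the peripheral stalk of ATP synthase, kept a 600-base peak with the same borders in each list (chr21:25734874-25735473, minus strand), with folds of 27.8, 37.5 and 41.6. COX19, an assembly factor of complex IV, had a 3′ UTR peak of 1600 bases (chr7:966431-968030, minus strand) with a fold of 52.2 in control, the highest of any member peak, and 22.3 and 36.3 with siRNA 1 and siRNA 2. COX10, which makes the heme of complex IV, had 2, 3 and 2 peaks, and each list held 1 at the transcript start and 1 over a stop codon from 14206906 or before on chromosome 17. COX11, a copper-delivering factor, kept a 5′ UTR peak at percentiles 41.6, 33.1 and 36.5 and had a stop codon peak in control alone, at 5.65. NDUFA7 and NDUFC1 had 5′ UTR peaks, and NDUFAF7, a methyltransferase of complex I assembly, a stop codon peak in each list. NDUFB11 peaks of the 3 lists overlapped, and with siRNA 1 the top peak stood at percentile 81.0, beside 34.6 in control and 23.8 with siRNA 2. For NDUFB2, the control and siRNA 2 peaks lay 15101 bases downstream of the RefSeq gene and the siRNA 1 peak at its start, so the count of 3 lists does not rest on a shared site. The NDUFB9 peaks lay 17703 to 17903 bases downstream of the RefSeq gene in each list, and it is uncertain that they belong to NDUFB9.

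**Figure D3:**
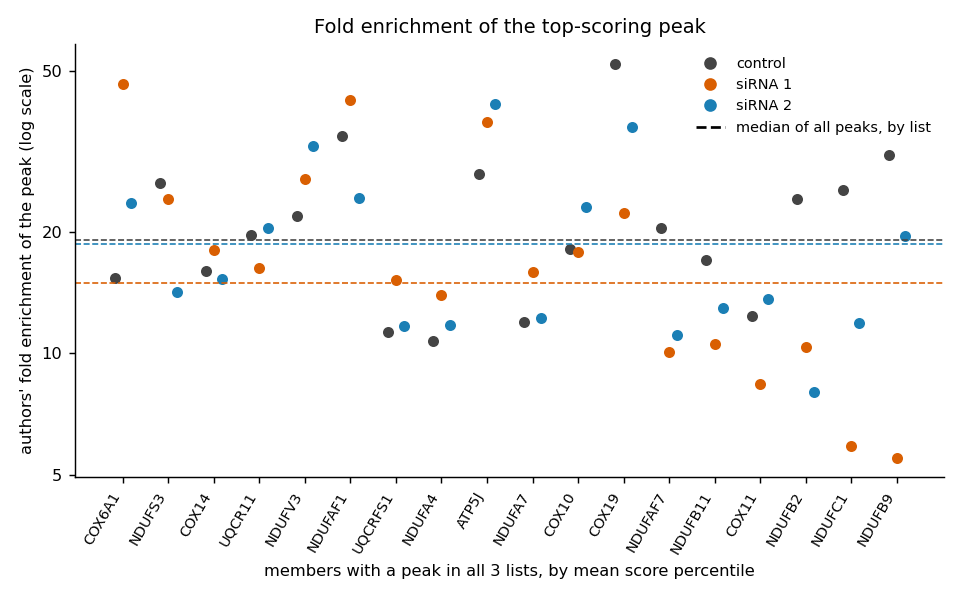
Authors' fold enrichment of the top-scoring peak, on a log y axis, for the 18 members with a peak in all 3 lists, ordered on the x axis by mean score percentile. Points are peaks in the control (grey), siRNA 1 (orange) and siRNA 2 (blue) lists, and dashed lines are the medians of all peaks in each list. COX6A1 reaches 46.6 with siRNA 1, and COX19 reaches 52.2 in control.

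The 7 members with a peak in control alone came from each role except complex IV. SDHC, a membrane anchor of complex II that helps bind ubiquinone, had a peak (chr1:161314257-161314656, plus strand, 400 bases) partly inside the RefSeq gene. Its annotation names a 5′ UTR, coding sequence and a stop codon, and no 3′ UTR. The SDHC peak stood at percentile 15.4, with a fold of 5.83 and a −log10 FDR of 2.28. UQCRC1, a core subunit of complex III that faces the matrix, had a 5′ UTR peak of 200 bases (chr3:48609795-48609994, minus strand) at percentile 1.27, with a fold of 3.42 and a −log10 FDR of 1.35. That percentile and that fold are the lowest in the control list, and the peak lies 149 bases upstream of the RefSeq gene. NDUFA6, a complex I subunit, had the highest-ranked peak of the class (chr22:42085741-42087085, minus strand, 600 bases), annotated from a 5′ UTR to a stop codon and 3′ UTR. It stood at percentile 78.9, with a fold of 13.3 and a −log10 FDR of 2.08. A fragment of 16 bases in the NDUFA6 3′ UTR stood at 22.1.

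NDUFB3, a membrane-arm subunit of complex I, had a 5′ UTR peak (chr2:201071633-201072292, plus strand) at percentile 48.6 with a fold of 6.72 and a −log10 FDR of 1.41. ATP5L, subunit g of ATP synthase (ATP5MG in RefSeq), had a 5′ UTR peak (chr11:118401354-118401553, plus strand) at 27.9 with a fold of 12.7, which ends 53 bases upstream of the RefSeq gene. ATP5S (DMAC2L in RefSeq, not a structural subunit) had a stop codon peak (chr14:50325711-50326110, plus strand) at 25.0 with a fold of 12.3. NDUFAF6, an assembly factor of complex I, had a peak with no transcript part named (chr8:94988655-94989254, plus strand) at 26.4 with a fold of 13.4. The 8 control peaks of these 7 members had a median percentile of 25.7, beside 15.4 for control peaks of all genes of this class. So 7 of the 8 lay in the lower part of the control list, and NDUFA6 was the exception.

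A peak with each siRNA but none in control was present for 4 members: NDUFA11, NDUFB7, NDUFS7 and NDUFAF4. NDUFS7, a core complex I subunit whose iron-sulfur cluster passes electrons to ubiquinone, had a stop codon peak with siRNA 1 (chr19:1395457-1395589, plus strand, 133 bases) at percentile 39.7 with a fold of 9.54 and a −log10 FDR of 1.94. With siRNA 2 its peak was another one, in the 3′ UTR by the annotation (1393657-1393856), at percentile 13.0 with a fold of 7.71 and a −log10 FDR of 1.51. The NDUFS7 peaks share no bases, so no site of this gene was present with both siRNAs. NDUFB7, a membrane-arm subunit, had the highest-ranked peaks of the class. They overlapped at the stop codon (from 14566078 on the minus strand of chromosome 19), at percentiles 75.6 with siRNA 1 and 79.3 with siRNA 2, folds of 20.7 and 17.5 and −log10 FDR of 5.06 and 2.88.

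NDUFA11, a further membrane-arm subunit, had overlapping 3′ UTR peaks (chr19:5895099-5895298 with siRNA 1, minus strand) at percentiles 11.6 and 22.4, with folds of 5.58 and 12.0. The −log10 FDR was 1.44 with siRNA 1 and 2.86 with siRNA 2. NDUFAF4, an assembly factor of complex I, had the same 200-base 5′ UTR peak in both lists (chr6:96897682-96897881, minus strand), at percentiles 31.5 and 39.2, with folds of 8.29 and 9.52 and −log10 FDR of 1.56 and 1.30. NDUFB7 was thus the one member of the 4 with overlapping peaks under an FDR of 0.01 in both siRNA lists.

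The 7 members with a peak in the siRNA 1 list alone were NDUFA1, NDUFA13, NDUFB8, SDHD, UQCRH, ATP5J2 and NDUFAF3. Each had 1 peak, and the 7 peaks were in a 5′ UTR, beside 240 of 576 (41.7%) siRNA 1 peaks of all genes of this class. NDUFA1, a small complex I subunit, stood at percentile 90.9 with a fold of 12.9, and UQCRH, the hinge protein of complex III, at 88.9 with a fold of 15.6. ATP5J2 (subunit f of ATP synthase, ATP5MF in RefSeq) stood at 70.1, NDUFB8 at 50.5, SDHD, the second membrane anchor of complex II, at 38.6, NDUFAF3 at 33.1 and NDUFA13 at 3.05. Their median percentile was 50.5, beside 33.1 for all genes of the class. The ATP5J2 and SDHD peaks share bases with peaks named for PTCD1 and AP002884.2 in the same list, the NDUFA13 peak lies 90 bases upstream of the RefSeq gene, and the ATP5J2 peak overlaps a control peak that carries another symbol.

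The remaining 7 members had weaker or displaced patterns. UQCR10, a small complex III subunit, had overlapping stop codon peaks in control and siRNA 1, at percentiles 84.8 and 75.2 with folds of 16.4 and 13.7. NDUFA10 had overlapping 3′ UTR peaks in control and siRNA 2, at 34.3 and 17.0 with folds of 28.0 and 12.1. UQCRQ had a control peak at 30.6 and a siRNA 1 peak at 63.0, and ATP5SL (DMAC2 in RefSeq) a control peak at 3.26 and a siRNA 2 peak at 49.8, in each case at places that share no bases. The NDUFA2 peaks of control and siRNA 1 lay 6058 and 6258 bases downstream of the RefSeq gene, at 10.1 and 3.05. NDUFB10 (27.9) and ATP5F1, subunit b of ATP synthase (1.29), had a peak with siRNA 2 alone.

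**Figure D4:**
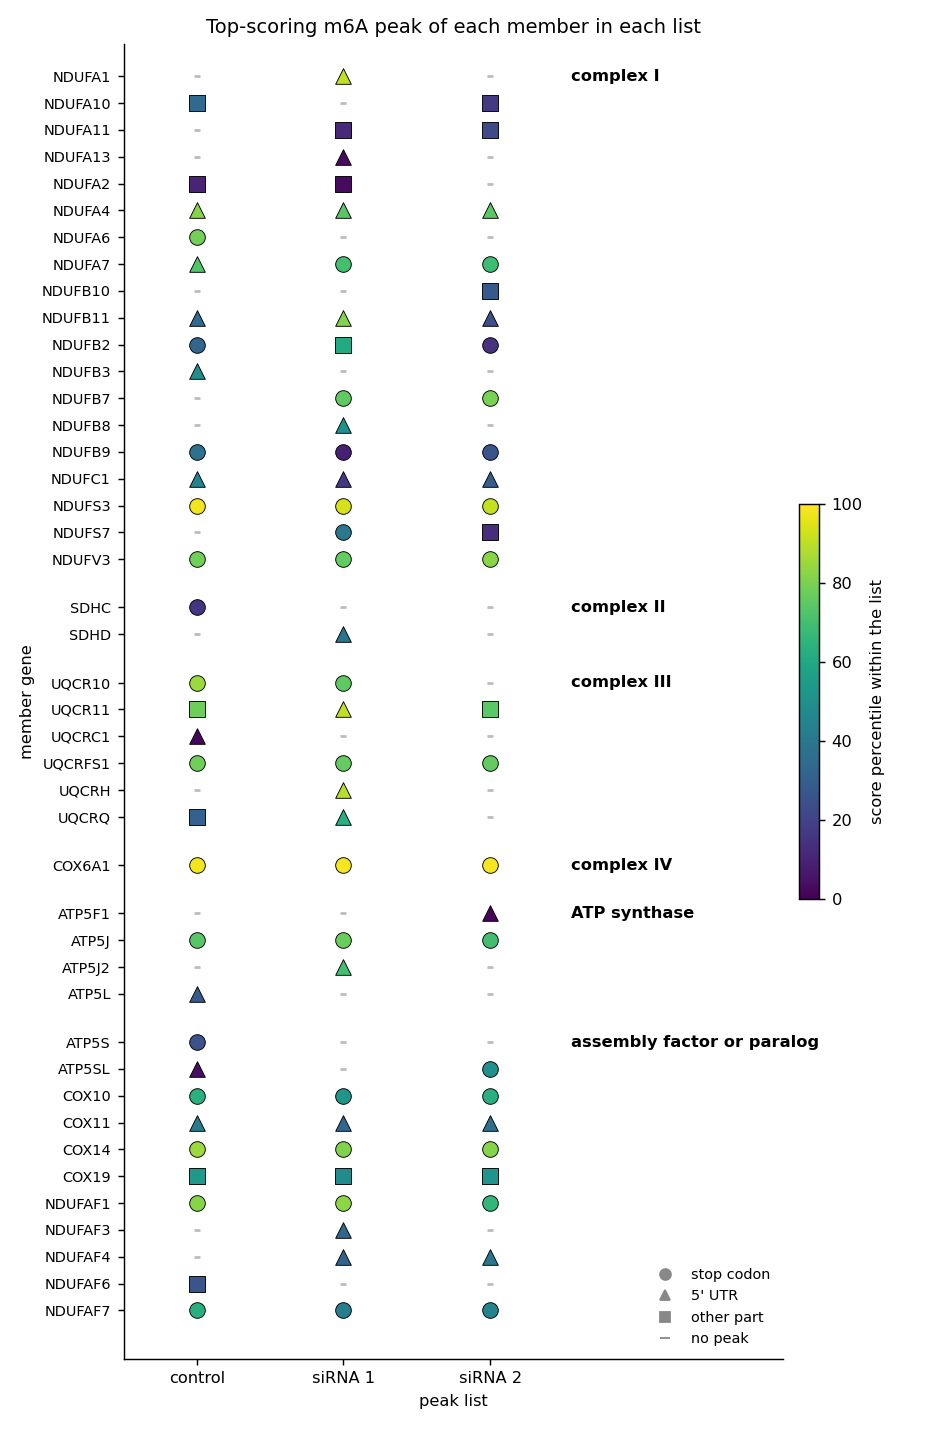
Top-scoring peak of each of the 43 members (y axis, by complex) in the 3 lists (x axis). Colour gives the score percentile within the list, and shape gives the transcript part: circle for a stop codon, triangle for a 5′ UTR, square for another part and a dash for no peak. The siRNA 1 column holds 7 triangles without a partner in either neighbouring column.

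Counted by peaks rather than genes, member peaks that stood alone were most frequent, against all peaks, in the siRNA 1 list. Of 36 member control peaks, 20 (55.6%, 38.1 to 72.1) overlapped a peak in each siRNA list, beside 62.8% of all control peaks, and 11 (30.6%, 16.3 to 48.1) overlapped none, beside 22.3%. Both intervals include the share of all control peaks. Of 41 member siRNA 1 peaks, 13 (31.7%, 18.1 to 48.1) overlapped no peak of the other lists, beside 10.8% of all siRNA 1 peaks. Among the 13 are the 3 UQCR11 peaks that share bases with one another, which the interval counts as separate. These 13 peaks had a median score percentile of 63.0, beside 31.5 for such peaks of all genes. For siRNA 2, 5 of 33 member peaks (15.2%, 5.11 to 31.9) stood alone, beside 6.51%, and their median percentile was 16.0. Peaks present with both siRNAs and not in control numbered 3 of 41 with siRNA 1 (7.32%, 1.54 to 19.9, beside 7.71%) and 4 of 33 with siRNA 2 (12.1%, 3.40 to 28.2, beside 7.38%). The sum of 7 counts partners in each list and is not a number of sites. The 3 siRNA 1 peaks, of NDUFA11, NDUFB7 and NDUFAF4, overlap siRNA 2 peaks of the same genes. The further siRNA 2 peak is the UQCR11 peak of uncertain gene, which overlaps a siRNA 1 peak named MBD3.

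The members' peaks were weaker in fold than in score. Median fold was 13.3 in control, 12.9 with siRNA 1 and 12.1 with siRNA 2, beside 19.1, 14.9 and 18.7 for all peaks. None of the 110 member peaks lay in the top 10% of its list by fold. By score, 50%, 63.4% and 51.5% of the member peaks lay in the upper part of their list, divided at its median. An FDR under 0.01 was reached by 66.7%, 80.5% and 57.6% of member peaks, beside 81.2%, 82.7% and 82.7% of all peaks. Of the 18 member control peaks in the upper part of the list by score, 7 (38.9%) missed an FDR of 0.01, beside 8.06% of such peaks of all genes. In the siRNA lists the same count was 4 of 26 (15.4%, beside 3.92%) and 6 of 17 (35.3%, beside 7.19%). Member peaks were also short: 25.0%, 46.3% and 30.3% covered 200 bases, beside 13.0%, 13.5% and 11.1% of all peaks.

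Complex III and complex IV stood highest by score, but complex IV is COX6A1 alone. Its 2 peaks per list had medians of 95.5, 94.1 and 86.1, and its top peak is of uncertain gene in both siRNA lists. The median percentile of complex III peaks was 77.7 in control (5 peaks), 82.3 with siRNA 1 (8 peaks) and 74.4 with siRNA 2 (3 peaks). UQCR11 alone gave 4 of the siRNA 1 peaks and 2 of the siRNA 2 peaks, of which 1 is of uncertain gene. Complex I peaks had medians of 40.7 (14 peaks), 66.5 (17 peaks) and 27.9 (15 peaks), each below that of complex III. The single complex II peaks stood at 15.4 in control and 38.6 with siRNA 1. Assembly factors and paralogs had medians of 54.7, 47.0 and 49.8, and their highest folds were 52.2, 42.4 and 36.3.

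Along the transcript, 5′ UTR peaks made up a larger share of member peaks than of all peaks in each list. A 5′ UTR peak here touches a 5′ UTR and neither a stop codon nor a 3′ UTR by the authors' annotation. In control 10 of 36 member peaks (27.8%, 14.2 to 45.2) were 5′ UTR peaks, beside 14.4% of all control peaks. With siRNA 1 it was 18 of 41 (43.9%, 28.5 to 60.3), beside 18.9%, and with siRNA 2 it was 9 of 33 (27.3%, 13.3 to 45.5), beside 16.6%. The intervals of control and siRNA 2 include the share of all peaks, and that of siRNA 1 does not. A wider count takes every peak that touches a 5′ UTR, also those over a stop codon. It gave 17 of 36 in control (47.2%, 30.4 to 64.5, beside 23.3%) and 24 of 41 with siRNA 1 (58.5%, 42.1 to 73.7, beside 28.0%). With siRNA 2 it gave 14 of 33 (42.4%, 25.5 to 60.8, beside 25.5%). By the wider count the control interval also lies above the share of all peaks, and the siRNA 2 interval starts at it. Stop codon peaks made up 50%, 39.0% and 51.5% of member peaks, beside 42.9%, 43.5% and 43.7% of all peaks, and the 3 member intervals include those shares. By role, the 18 siRNA 1 peaks in a 5′ UTR were 7 of complex I, 1 of complex II, 4 of complex III, 1 of ATP synthase and 5 of assembly factors.

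RefSeq transcript starts gave a like picture for siRNA 1. In the table used, 37 of the 43 members have a start, 45 starts in all. A peak over any of the first 50 transcribed bases was present for 9 of 25 members in control (36.0%, 18.0 to 57.5), 18 of 29 with siRNA 1 (62.1%, 42.3 to 79.3) and 9 of 24 with siRNA 2 (37.5%, 18.8 to 59.4). All genes with a peak and a start gave 23.7%, 31.0% and 26.6%, of which the member intervals of control and siRNA 2 include theirs and that of siRNA 1 does not. COX6A1, COX10, COX14, NDUFA4, NDUFA7, NDUFS3, NDUFC1 and ATP5J had such a peak in the 3 lists. With siRNA 1 alone it was present for NDUFA1, NDUFB2, NDUFB8, NDUFB11, SDHD, UQCR11, UQCRH, UQCRQ and NDUFAF3, of which NDUFB2, UQCR11 and UQCRQ had a peak elsewhere in control. For NDUFB11 the control and siRNA 2 peaks overlap the siRNA 1 peak. They have their edge at 47144705, just beside the window of 47144653 to 47144702, so this call rests on the border of a peak. The NDUFAF3 peak reaches 1 base of its window, and NDUFB3 in control and NDUFAF4 in the siRNA lists complete the counts.

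**Figure D5:**
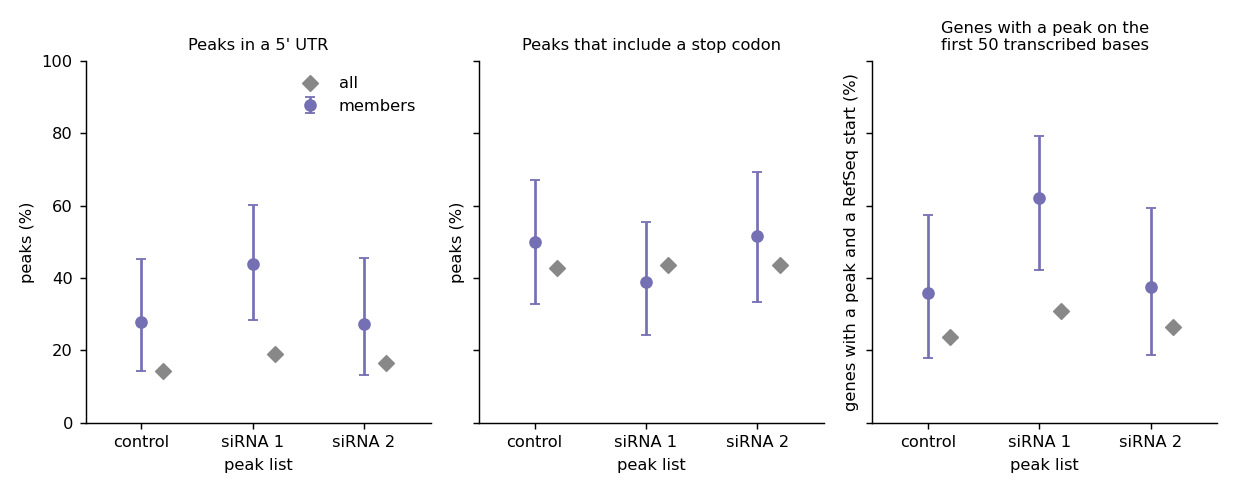
Share of member peaks in a 5′ UTR (left) and over a stop codon (middle), and share of member genes with a peak on the first 50 transcribed bases (right), in percent on the y axis, for the 3 lists on the x axis. The left panel leaves out peaks that also touch a stop codon or a 3′ UTR. Purple circles are members with 95% exact binomial intervals, and grey diamonds are all peaks or all genes. With siRNA 1 the members reach 43.9% and 62.1% in the outer panels, where all peaks or genes reach 18.9% and 31.0%.

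The windows printed above come from these starts. At least 1 DRACH match on the transcript strand lay in the first 50 bases at 15 of the 24 member starts with a peak there (62.5%), at 25 of all 45 member starts (55.6%) and at 49.6% of 35116 RefSeq starts. Of all 3260 starts with a peak there, 42.0% held a match. On the opposite strand, matches lay at 17 of the 24 starts (70.8%), at 43.5% of all starts with a peak there and at 50.6% of all starts. An A as the first transcribed base was present at 11 of the 24 (45.8%), 14 of the 45 (31.1%), 52.6% of all starts with a peak there and 44.4% of all starts. NDUFA4, NDUFA7, COX6A1 and COX10 had a peak over the start in the 3 lists and no match on the transcript strand in those 50 bases, whose letters give no account of the rest of the peak. The A of the match lay 15 bases from the RefSeq start, counted from 1, in UQCRH, 14 in SDHD and 17 in NDUFS3.

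Some peaks cannot be given to a member with certainty. By RefSeq gene spans, 58 of the 110 member peaks lay inside the gene, 38 partly inside and 14 outside. A peak of another symbol in the same list shared bases with 12. In all, 24 peaks of 15 members lay outside the gene or shared bases with another symbol. Without them, 15 of the remaining members (44.1%) had a peak in all 3 lists, beside 65.4% of all genes, and 5 (14.7%) in control alone, beside 12.0%. A further 5 (14.7%) had a peak in siRNA 1 alone, beside 5.01%, where NDUFB2 replaced NDUFA13, SDHD and ATP5J2. No interval was computed for these shares, so whether counting error alone spans the distance to all genes is not given. The earlier statement that the siRNA 1 alone interval does not reach the share of all genes holds with these peaks counted. Whether it holds without them was not tested.

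Several other mitochondrial gene groups are set beside the members as a description, and most had a larger share of genes with a peak. Assembly factors outside the symbol prefixes had peaks on 24 of 37 genes (64.9%). Of these, 20 (83.3%) had a peak in all 3 lists, beside 71.0% of the protein-coding genes of RefSeq with a peak. Their median fold was 37.9, 29.7 and 31.1 in control, siRNA 1 and siRNA 2, beside 15.7, 12.9 and 12.6 for the top peak of each member. SCO2, a copper chaperone of complex IV, had folds of 73.4, 184 and 106, and SDHAF1, which serves the iron-sulfur clusters of SDHB, had 114, 110 and 139. TACO1, the translational activator of COX1, had 75.9, 95.9 and 106. Each of these folds exceeds that of any member peak.

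Mitochondrial ribosomal proteins had peaks on 50 of 77 genes (64.9%), and protein import components on 13 of 20 (65.0%). Of the 50, 34 (68.0%) had a peak in all 3 lists, near the 71.0% of protein-coding genes with a peak. Tricarboxylic acid cycle enzymes had peaks on 4 of 17 genes (23.5%). Among electron carriers and related subunits, 10 of 19 had a peak, and cytochrome c (CYCS) stood at percentiles 82.2, 80.5 and 68.6. Of 13 regulators of mitochondrial biogenesis, 12 had a peak, 9 of them in all 3 lists. TFAM and TFB2M had a peak in control alone, at percentiles 71.5 and 58.7. They are 16.7% of the regulators with a peak, beside 12.0% of all genes in that class. POLRMT had a peak in siRNA 1 alone, at percentile 50.5.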

How the data were processed

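m6A-IP and input libraries of 3 conditions stand behind 1 deposited peak list per condition, marked as merged over r1 and r2, while the labels hold 1 library of each kind per condition. Reads were aligned to hg38 with HISAT2, per the submitters' processing notes. The sources used here do not give the peak caller or the annotation release. The score of each peak, a whole number of undefined scale, its fold enrichment (ratio) and its −log10 FDR are the authors' deposited values, each with an FDR under 0.05. Members and gene lists were chosen with earlier results of these data known. Full values were given for SDHC, UQCRC1, NDUFS7, members in control alone, members in both siRNA lists and not control, and the 8 members in all 3 lists with the highest mean score percentile. Overlap meant 1 or more shared bases of same-strand blocks, a step tested on simulated data with 3000 of 3000 simulated peaks right. RefSeq GRCh38.p14 gave names for 7 older symbols, gene spans and transcript starts. Of symbols that fit the rule, 5 with a hyphen were left out, and no pseudogene was found. Peaks without a gene symbol (55, 41 and 43) were left out of gene counts. No p-value was computed, and the depth behind a peak is unknown. Python 3.11.15, pandas 2.3.3 and scipy 1.17.1 were used. Values of single tricarboxylic acid cycle genes are not reported here.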

Additional observations from a re-analysis of the deposited data

How the results depend on the processing

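Of 84 recomputed values, 65 stayed within 1.5 times the count, or within the interval of the share, and 19 did not. With an FDR under 0.01, 9 members (25.0%, beside 63.6% of all genes) had a peak in all 3 lists and 16 (44.4%, beside 78.9%) a siRNA 2 peak. At that FDR 7 member control peaks (29.2%) were found again with each siRNA. A further 13 member siRNA peaks (25.0%), counted over both siRNA lists, were shared by both siRNA lists and not control. No share over all peaks was computed for these counts. The top control peaks of COX6A1 and NDUFA7 (−log10 FDR 1.75 and 1.71) drop out at that FDR. Siblings of these peaks in the siRNA lists thus enter the 13 although the control list holds a peak there. FDR and score rank member peaks differently. Among the 50% of peaks with the highest scores, the count was 2 for control alone (8.70%, beside 13.3% of all genes). It was 1 for both siRNA lists and not control (4.35%, beside 3.55%) and 11 for all 3 lists (47.8%, beside 66.3%). For control, siRNA 1 and siRNA 2 it was 15 (65.2%, beside 89.8%), 20 (87.0%, beside 77.9%) and 13 (56.5%, beside 78.6%). In the top 50% by fold the count was 4 for control alone (22.2%, beside 15.6% of all genes). It was 2 for both siRNA lists and not control (11.1%, beside 5.08%) and 5 for all 3 lists (27.8%, beside 58.7%). For control and siRNA 1 it was 11 (61.1%, beside 86.3%) and 13 (72.2%, beside 73.1%). For siRNA 2 it was 8 (44.4%), a share below that of all genes. These settings hold fewer peaks by construction. Requiring 50% of both peaks to be shared, 4 member siRNA peaks, counted over both siRNA lists, were shared by both siRNA lists and not control. Among member siRNA 1 peaks that touch no 5′ UTR, 11 of 17 (64.7%) include a stop codon, and the share over all peaks was not computed. With NDUFA4 in complex IV, that complex had 2 members. Members in siRNA 1 alone numbered 9 with an FDR under 0.01 (25.0%, beside 5.46% of all genes). They numbered 8 with equal list lengths (19.0%, beside 5.97%) and 7 in the top 50% by score (30.4%, beside 4.39%). The 5′ UTR share of siRNA 1 peaks ranged from 38.5% to 43.8%. The settings for these 2 results, and the one without uncertain peaks, were chosen after seeing the data. Symbols updated through RefSeq added 2 genes, ATP5IF1 and NDUFAF8. No paired analysis was possible because each condition has 1 merged list. The number of peaks limits the precision.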
